A study of Saccharomyces cerevisiae with 40 samples.

Results

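The genes described here encode the proteasome of budding yeast and its transcriptional regulator. They are 33 of the 6661 transcripts quantified in each library, listed by systematic name. They comprise 7 alpha and 7 beta subunit genes of the core particle, 6 ATPase and 4 non-ATPase genes of the base, 8 genes of the lid, and RPN4. SEM1, a small lid subunit, is not among them. The 32 subunit genes and RPN4 passed the filter on low counts in every comparison.

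The study asked how a glyphosate-based herbicide, Credit41 (Cr41), changes transcription in Saccharomyces cerevisiae strains that differ in sensitivity to it. Cells in the treated groups received 0.25% Cr41 for 90 min (the sample records word the dose as 0.25% glyphosate in Cr41), and total RNA was sequenced. A haploid laboratory strain of S288c background, GSY147, called S288c here, was set beside RM11, a haploid strain of vineyard origin. The 8 groups of 5 libraries were S288c with Cr41 and untreated in minimal medium (YM), S288c with Cr41 and untreated in YM supplemented with tryptophan, tyrosine and phenylalanine (WYF), and the same 4 combinations for RM11. Each strain is a single genetic background, YM and WYF libraries were sequenced in different lanes, so that medium and lane cannot be told apart, and the records do not say whether replicates were separate cultures, so p-values measure the spread between these samples.

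The proteasome is the ATP-dependent protease that degrades ubiquitin-tagged proteins. In its core particle, rings of alpha subunits gate a chamber formed by rings of beta subunits, of which PRE3, PUP1 and PRE2 carry the caspase-like, trypsin-like and chymotrypsin-like active sites. The regulatory particle caps the core: its base holds the RPT ATPases that unfold substrates, together with ubiquitin receptors, and its lid holds the deubiquitinase RPN11. Rpn4 is a short-lived zinc finger transcription factor that binds the proteasome-associated control element in the promoters of subunit genes and is itself degraded by the proteasome, which makes a feedback loop. The RPN4 gene is known in yeast as a target of Pdr1 and Pdr3, regulators of drug resistance, of Yap1, the oxidative stress regulator, and of Hsf1, the heat shock factor.

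The control element was present before each of the 32 subunit genes in the S288c reference. In the 300 bases before the start codon, GGTGGCAAA on either strand occurred in 27 of the 32 subunit genes, against 73 of 6001 promoters in the RefSeq R64 genome (1.22%). The looser form NGTGGCNAA, which includes it, occurred in 32 of 32, against 260 promoters (4.33%). PRE5, PUP1 and RPN8 held AGTGGCAAA, and RPN10 and RPN13 held GGTGGCGAA. The first base of the match lay 84 to 183 bases before the start codon, with a median of 122, and RPN4 itself held neither form. The elements of selected subunit genes are shown with 25 bases on each side. They run 5′ to 3′ on the strand of the gene, with the element in capitals (TTTGCCACC or TTCGCCACC where it lies on the other strand). The first 3 genes fell most of the 32 in S288c in YM, and the next 4 rose there. PRE3 and PRE2 encode active sites, and RPN10 and RPN13 carry the GGTGGCGAA form.
PUP2: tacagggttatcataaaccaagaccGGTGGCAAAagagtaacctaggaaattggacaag
PUP3: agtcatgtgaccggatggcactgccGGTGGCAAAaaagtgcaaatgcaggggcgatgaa
PUP1: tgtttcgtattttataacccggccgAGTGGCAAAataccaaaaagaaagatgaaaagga
RPN5: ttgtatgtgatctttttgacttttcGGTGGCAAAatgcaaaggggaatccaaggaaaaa
RPT6: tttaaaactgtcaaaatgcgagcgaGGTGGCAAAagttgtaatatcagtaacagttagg
RPN11: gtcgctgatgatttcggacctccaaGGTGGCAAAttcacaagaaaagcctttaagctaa
RPN3: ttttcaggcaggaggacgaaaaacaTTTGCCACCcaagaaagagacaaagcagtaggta
PRE3: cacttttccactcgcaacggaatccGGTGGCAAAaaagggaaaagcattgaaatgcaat
PRE2: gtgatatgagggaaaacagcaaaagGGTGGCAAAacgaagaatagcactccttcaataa
RPN10: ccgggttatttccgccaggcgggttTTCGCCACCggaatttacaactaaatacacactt
RPN13: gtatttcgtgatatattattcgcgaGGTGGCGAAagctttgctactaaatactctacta
On R64 these stretches lie at chrVII:999211-999269 (minus strand), chrV:349496-349554 (minus), chrXV:631876-631934 (minus), chrIV:190761-190819 (plus), chrVII:411337-411395 (minus), chrVI:153244-153302 (plus), chrV:196828-196886 (plus), chrX:435020-435078 (plus), chrXVI:732169-732227 (plus), chrVIII:498953-499011 (plus) and chrXII:965641-965699 (minus), in the order shown. The RM11 sequences were not analysed here.

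The stretch before RPN4 held other motifs. It is shown because RPN4 moved more with Cr41 in S288c than any of the 32 subunit genes. The stretch runs from 452 to 326 bases before the start codon, at chrIV:417034-417160 on the minus strand.
RPN4: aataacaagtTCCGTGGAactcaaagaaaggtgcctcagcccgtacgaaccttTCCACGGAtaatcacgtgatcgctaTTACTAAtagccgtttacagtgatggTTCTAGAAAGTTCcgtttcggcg
The capitals mark, in order, TCCGTGGA and its reverse complement TCCACGGA (a form of the Pdr1 and Pdr3 element), TTACTAA (a Yap1 element, which reads TTAGTAA on the other strand), and a heat shock element (GAA, TTC and GAA, each separated by NN) on the other strand. Among 5999 promoters of 600 bases searched on both strands, TCCGTGGA occurred in 1.30%, TTACTAA in 13.7% and the heat shock element in 1.70%. RPN4 held 2, 1 and 2 matches to them, the second heat shock element lying 21 bases before the start codon. Of the 32 subunit genes, 0 held TCCGTGGA, 5 held TTACTAA and 0 held the heat shock element in the same window. The matches are descriptions of the reference sequence, and binding was not measured.

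Libraries held 4224356 to 7866046 assigned reads, and each of the 33 genes had at least 111 reads in every library. No gene of the set had a near-identical copy or overlapped another annotated gene, the closest relatives being ATPase genes at up to 74.8% identity over 155 bases. In distance from the rest of its group, the library farthest apart was RM11 with Cr41 in YM, replicate 5, at 1.61 times the distance that separated the other 4 libraries. The next were S288c with Cr41 in YM, replicate 4 (1.41), untreated RM11 replicate 2 in WYF (1.38) and untreated S288c replicate 4 in WYF (1.35). That last library differed from the other 4 by a chi-square of 27.5 to 50.5 per degree of freedom, against 3.89 to 12.2 among those. Summed over 57 transcripts present in S288c and close to absent in RM11, levels reached 2.08% of their S288c level in untreated RM11 replicate 2 in WYF, and 0.953% and 1.30% in untreated RM11 replicates 2 and 4 in YM, against at most 0.415% in the other RM11 libraries. Results of the 33 genes that rest on these libraries are given with and without them. Counts of other gene lists were not repeated without them.

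Cr41 moved RPN4 and the subunit genes apart in S288c. In S288c in YM, RPN4 rose 1.14 on the log2 scale and was the only 1 of the 33 genes to change 2-fold (11.0% of all genes rose 2-fold), while the 32 subunit genes had a median log2 fold change of 0.01 (all genes 0.00). Of the 33 genes, 7 rose and 11 fell (adjusted p under 0.05, edgeR quasi-likelihood test with Benjamini-Hochberg adjustment over all genes), against 33% and 34.2% of the 5716 genes tested. Their changes spread less than those of all genes, with a standard deviation of 0.31 among the 32 subunit genes and 0.97 among all genes tested. The median subunit gene lay at the 84.4th percentile of transcript level in untreated S288c in YM, and the spreads were not compared at like abundance. The number that rose was 4 without untreated replicate 1 and 4 without Cr41 replicate 4, and limma on log2(TPM + 1), a scale on which the median of all genes was -0.14, gave 3 that rose and 13 that fell. By library values in TPM (transcript abundance scaled for length and depth), 2 genes did not overlap and were higher with Cr41 (19.8% of all genes) and 12 were lower (35.2%). All genes lower 2-fold came to 8.82%.

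In the other 3 settings the changes of the 32 subunit genes spread less than in S288c in YM, and so did those of all genes. The standard deviations of the 32 were 0.18 in S288c in WYF, 0.11 in RM11 in YM and 0.13 in RM11 in WYF. Those of all genes tested were 0.61, 0.32 and 0.34 in the same order. With WYF present, 3 of the 33 genes rose in S288c and 6 fell, against 22.7% and 25.4% of all genes, and the number that fell was 3 without untreated replicate 5, without Cr41 replicate 3 or without Cr41 replicate 4. Without untreated replicate 4, PUP2 (-0.36), PRE9 (-0.27), RPN10 (-0.25), PRE5 (-0.20) and PUP3 (-0.14) fell, while RPT4 (-0.20, adjusted p = 0.051), RPN1 (-0.16, 0.051), RPN13 (-0.22, 0.057) and PRE2 (0.16, 0.063) were not called. Of the same genes, 1 rose and 8 fell in RM11 in WYF, against 17.8% each way, and 3 of the 8 (PRE9, RPT4 and RPN13) also fell in S288c in WYF. The gene that rose, PRE3, was lost in 5 of 10 fits with 1 library left out, and 5 fell without untreated replicate 2 or without Cr41 replicate 1. In RM11 in YM, 0 rose in edgeR (0 at an unadjusted p under 0.05, and 0 in DESeq2 and in limma) and 3 fell, against 7.99% and 7.28%. Without Cr41 replicate 5 the number that fell was 15, against 15.2% of all genes, and it was 1 without untreated replicate 2 or without Cr41 replicate 2. Values did not overlap and were higher or lower for 1 and 8 genes in S288c in WYF (12.4% and 23.1% of all genes), 0 and 1 in RM11 in YM (10.1% and 5.53%), and 0 and 6 in RM11 in WYF (11.7% each way). No gene of the 33 passed 2-fold in these 3 settings, where the shares of all genes that rose and fell 2-fold were 2.99% and 5.36% for S288c in WYF, 0.946% and 0.710% for RM11 in YM, and 1.19% and 0.457% for RM11 in WYF. The medians of the 32 subunit genes were -0.05 in S288c in WYF, -0.10 in RM11 in YM and -0.06 in RM11 in WYF.

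**Figure D1:**
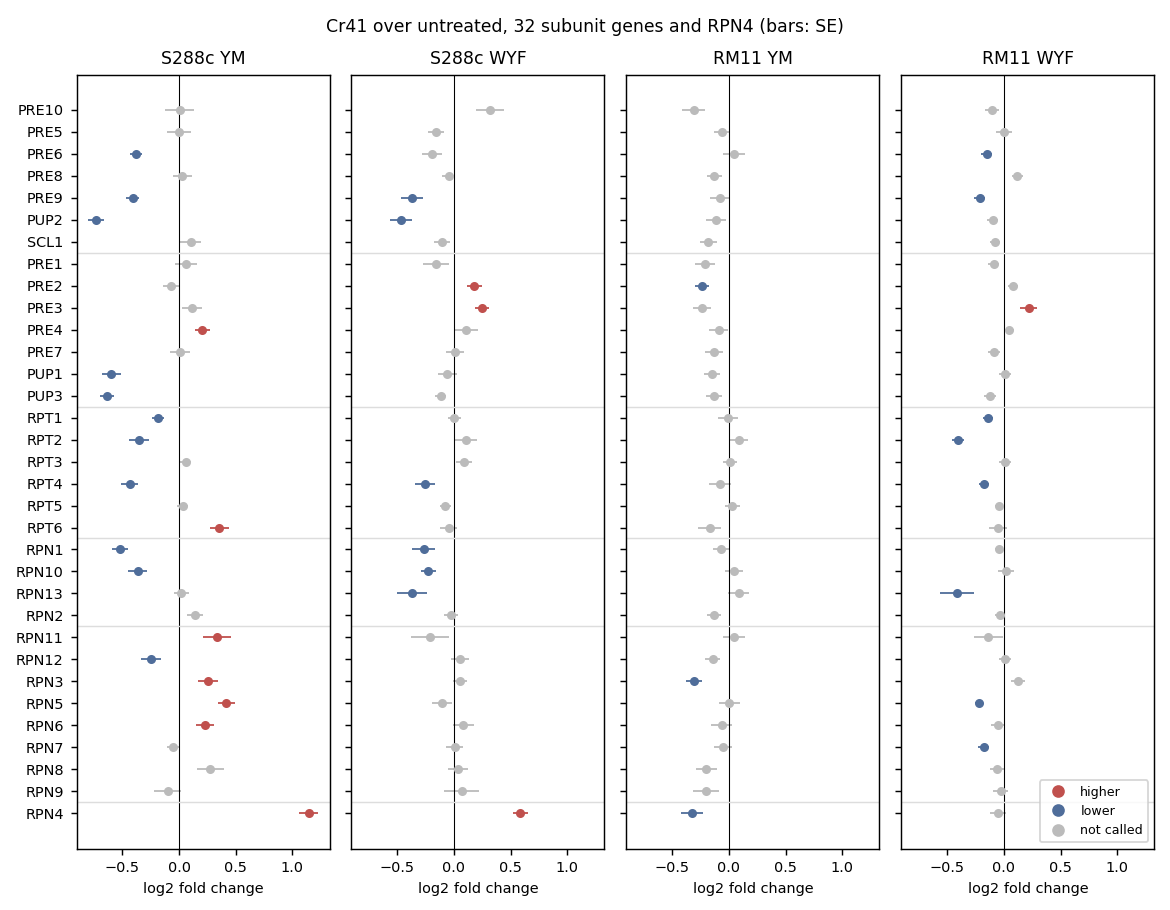
Log2 fold change with Cr41 over untreated (x axis, bars are SE) for the 32 subunit genes and RPN4 (rows, grouped from top to bottom as core alpha, core beta, base ATPase, base non-ATPase, lid and RPN4) in each strain and medium. Red points rose and blue points fell at adjusted p under 0.05 in edgeR. RPN4 lies at 1.14 in S288c in YM, to the right of every subunit gene in that panel.

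RPN4 (YDL020C) was higher with Cr41 in both S288c settings. In S288c in YM it measured 62.0, 58.8, 63.3, 68.9 and 71.3 TPM with Cr41, against 29.5, 34.4, 32.7, 33.7 and 32.4 TPM untreated (log2 fold change 1.14, SE 0.08, adjusted p = 1.7e-07). Every treated library lay above every untreated one, by a fold of 2.21 in the fitted means. In S288c in WYF it measured 54.4, 55.2, 60.6, 60.5 and 63.6 TPM with Cr41, against 40.8, 36.7, 44.3, 43.9 and 41.3 TPM untreated (log2 fold change 0.59, SE 0.06, adjusted p = 5.7e-06), and again the groups did not overlap. The call held with each library left out in turn in both media.

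RPN4 in RM11 did not rise. In YM it measured 47.2, 44.8, 42.2, 36.2 and 51.7 TPM with Cr41, against 55.2, 59.0, 55.0, 57.8 and 42.2 TPM untreated (log2 fold change -0.32, SE 0.10, adjusted p = 0.040). The groups overlapped through untreated replicate 5, the lowest untreated library, which treated replicates 1, 2 and 5 exceeded, while the other 4 untreated libraries lay above every treated one. The call was lost in 7 of 10 fits with 1 library left out, where adjusted p reached 0.10 without untreated replicate 2, and in the fit without the 3 untreated RM11 libraries that carried S288c transcripts (adjusted p = 0.24). In WYF it measured 39.6, 40.8, 38.7, 43.3 and 46.1 TPM with Cr41, against 40.8, 46.5, 48.1, 44.7 and 36.5 TPM untreated (log2 fold change -0.05, SE 0.07, adjusted p = 0.61), and the groups overlapped.

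The difference between strains was tested directly. The Cr41 effect on RPN4 was higher in S288c than in RM11 by 1.47, SE 0.14, adjusted p = 1.5e-08 on the log2 scale in YM, and by 0.65, SE 0.09, adjusted p = 1.3e-05 in WYF. Within S288c, the effect was larger in YM than in WYF by 0.57, SE 0.11, adjusted p = 3.0e-04. Within RM11 the corresponding difference was -0.29, SE 0.12, adjusted p = 0.13. Untreated levels differed as well: in YM, untreated S288c had 32.5 ± 1.88 TPM and untreated RM11 53.8 ± 6.73 TPM (SD, n = 5 each; log2 fold change -0.79, SE 0.08, adjusted p = 2.0e-06). In WYF the untreated strains differed by -0.21, SE 0.08, adjusted p = 0.041, a call lost in 4 of 5 fits with 1 replicate number left out. RPN4 was higher in WYF than in YM in untreated S288c (log2 fold change 0.30, SE 0.06, adjusted p = 0.0029) and lower in untreated RM11 (log2 fold change -0.29, SE 0.09, adjusted p = 0.025), the second call being lost without replicate 1, 2 or 4 of both groups.

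**Figure D2:**
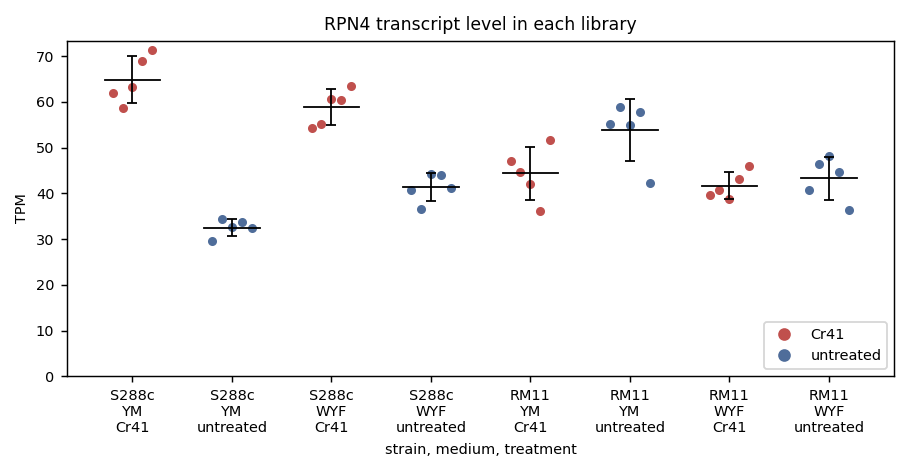
RPN4 level in TPM (y axis) in each of the 5 libraries of the 8 groups (x axis), with the mean and SD in black. Cr41 libraries of S288c lie above the untreated ones in both media, at 58.8 to 71.3 against 29.5 to 34.4 TPM in YM, while the RM11 groups overlap.

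Of the 7 alpha subunit genes, 3 fell with Cr41 in S288c in YM (PUP2, PRE9 and PRE6), where 34.2% of all genes fell. PUP2 (YGR253C) fell most of the subunit genes there, at 182, 211, 216, 181 and 178 TPM with Cr41 against 386, 328, 348, 374 and 352 TPM untreated (log2 fold change -0.73, SE 0.07, adjusted p = 2.2e-06). No treated library reached the lowest untreated one. In S288c in WYF it measured 224, 212, 207, 206 and 202 TPM with Cr41, against 268, 274, 269, 415 and 308 TPM untreated (log2 fold change -0.46, SE 0.10, adjusted p = 0.0014). The untreated libraries there were spread by replicate 4, yet all lay above the treated ones, and the call held with each library left out in turn.

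In RM11, PUP2 was not called in either medium. In YM it measured 272, 319, 265, 283 and 406 TPM with Cr41, against 320.1, 313, 306, 316 and 343 TPM untreated (log2 fold change -0.12, SE 0.09, adjusted p = 0.42). Replicate 5 with Cr41 was the highest of the 10 libraries, and without it the log2 fold change was -0.20 (adjusted p = 0.012). In WYF it measured 250.4, 236, 249, 246 and 249.6 TPM with Cr41, against 246, 266, 302, 273 and 252 TPM untreated (log2 fold change -0.10, SE 0.05, adjusted p = 0.12). The Cr41 effect differed between strains in YM (-0.62, SE 0.11, adjusted p = 7.8e-05, S288c minus RM11) and in WYF (-0.36, SE 0.11, adjusted p = 0.016).

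PRE9 (YGR135W), the alpha subunit gene that yeast can live without, fell in 3 of the 4 settings. Its means were 177 ± 11.7 TPM with Cr41 and 261 ± 5.09 TPM untreated in S288c in YM (log2 fold change -0.41, SE 0.06, adjusted p = 5.8e-05), 164 ± 7.52 TPM with Cr41 and 226 ± 44.9 TPM untreated in S288c in WYF (log2 fold change -0.37, SE 0.10, adjusted p = 0.0070), and 193 ± 9.90 TPM with Cr41 and 227 ± 9.82 TPM untreated in RM11 in WYF (log2 fold change -0.21, SE 0.04, adjusted p = 0.0017; SD, n = 5 in every group). The groups did not overlap in any of the 3. PRE6 fell in S288c in YM (-0.38) and in RM11 in WYF (-0.15), where the call was lost with 1 library left out in 6 of 10 fits. SCL1, PRE8, PRE5 and PRE10 were not called in these 4 comparisons, with log2 fold changes between -0.31 and 0.32, though each was in at least 1 alternative or with 1 library left out.

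**Figure D3:**
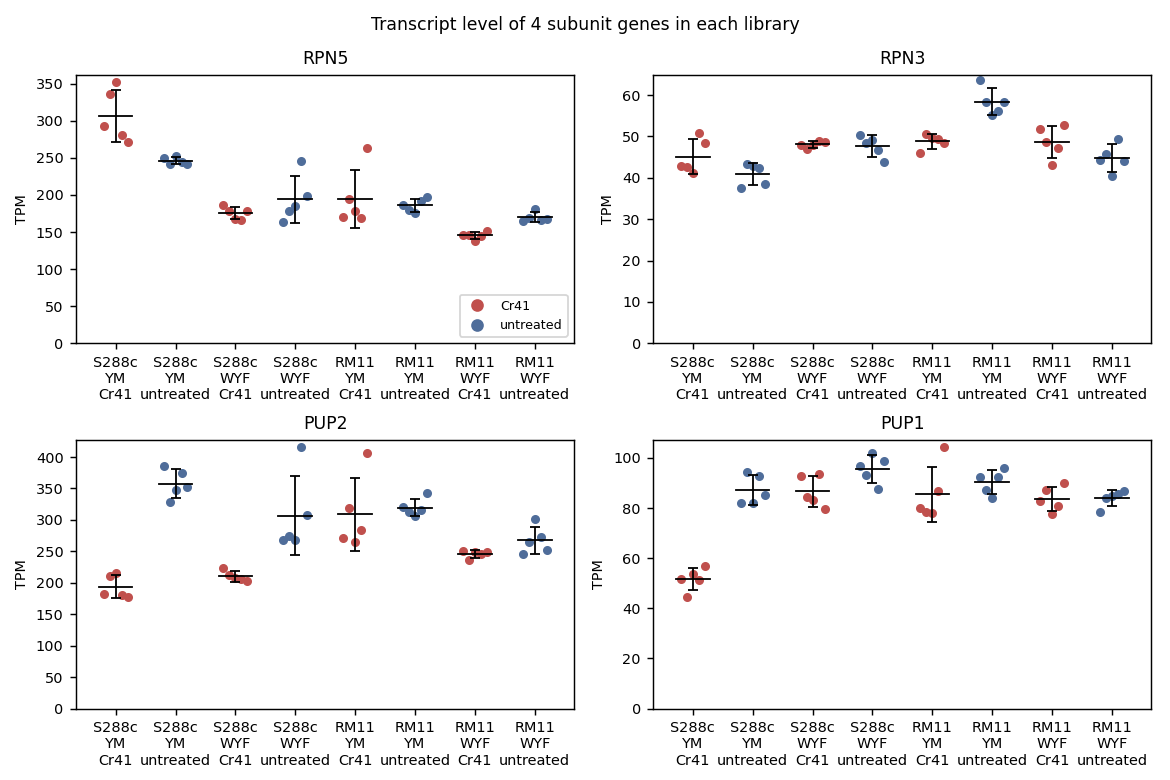
Levels in TPM (y axis) of the lid genes RPN5 and RPN3 (top) and the core genes PUP2 and PUP1 (bottom) in each library of the 8 groups (x axis), with mean and SD. RPN5 lies at 272 to 352 TPM with Cr41 against 242 to 252 TPM untreated in S288c in YM, where PUP2 and PUP1 lie below their untreated libraries.

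Of the 7 beta subunit genes, 2 fell in S288c in YM (PUP3 and PUP1) and 1 rose (PRE4), against 34.2% and 33% of all genes. PUP3 (YER094C), the most abundant subunit transcript per length in untreated cells of all 4 settings, measured 250.5, 282, 269.6, 261 and 238 TPM with Cr41, against 454, 427, 426, 489 and 441 TPM untreated (log2 fold change -0.64, SE 0.06, adjusted p = 1.4e-06). All treated libraries were below all untreated ones. PUP1 (YOR157C), which carries the trypsin-like site, measured 51.6, 44.7, 53.8, 51.3 and 56.7 TPM with Cr41, against 81.9, 94.4, 82.1, 92.8 and 85.3 TPM untreated (log2 fold change -0.60, SE 0.08, adjusted p = 5.7e-05). These groups did not overlap either. PRE4, a subunit without an active site, averaged 249.6 ± 11.3 TPM with Cr41 and 241 ± 14.3 TPM untreated (SD, n = 5 each; log2 fold change 0.21, SE 0.07, adjusted p = 0.016), and its rise was lost on the TPM scale in limma.

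PUP1 was not called in the other 3 settings. The S288c values in WYF were 92.8, 84.3, 83.2, 93.6 and 79.6 TPM with Cr41, against 96.7, 93.2, 102, 87.4 and 98.8 TPM untreated. In RM11 in YM it measured 80.2, 78.3, 78.0, 86.8 and 104 TPM with Cr41, against 92.2, 87.2, 84.2, 92.5 and 95.8 TPM untreated, and replicate 5 with Cr41 was again the highest library. The RM11 values in WYF were 82.6, 87.0, 77.6, 80.8 and 89.8 TPM with Cr41, against 78.4, 84.0, 84.8, 85.8 and 86.9 TPM untreated. The groups overlapped in these 3 settings, with adjusted p of 0.58, 0.18 and 0.90 in edgeR. The effect in S288c was lower in YM than in WYF (-0.53, SE 0.12, adjusted p = 0.0016) and lower in S288c than in RM11 in YM (-0.45, SE 0.11, adjusted p = 0.0023).

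PRE3 (YJL001W), the gene of the caspase-like site, rose in both strains in WYF. It measured 124, 134, 123, 132 and 135 TPM with Cr41 in S288c, against 115, 103, 125, 127 and 109 TPM untreated (log2 fold change 0.25, SE 0.06, adjusted p = 0.0048). In RM11 in WYF it measured 114, 122, 94.6, 104 and 133 TPM with Cr41, against 97.6, 102, 96.4, 98.9 and 99.7 TPM untreated (log2 fold change 0.22, SE 0.07, adjusted p = 0.032). Both pairs overlapped by library, and the RM11 call was lost with 1 library left out in 5 of 10 fits, to values between 0.17 and 0.22. In YM the gene was not called in either strain. It measured 107, 103, 101, 128 and 114 TPM with Cr41 in S288c, against 107, 126, 122, 109 and 108 TPM untreated (log2 fold change 0.11, SE 0.09, adjusted p = 0.29). In RM11 in YM it measured 109, 103, 109.6, 114 and 116 TPM with Cr41, against 131, 137, 118, 134 and 107 TPM untreated (log2 fold change -0.24, SE 0.08, adjusted p = 0.055). The Cr41 effect in RM11 was lower in YM than in WYF by -0.48, SE 0.11, adjusted p = 0.0080.

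PRE2 (YPR103W), the gene of the chymotrypsin-like site, rose in S288c in WYF and fell in RM11 in YM. In S288c in WYF it measured 147, 154, 132, 153 and 135 TPM with Cr41, against 137, 129, 144, 137 and 129.6 TPM untreated (log2 fold change 0.18, SE 0.07, adjusted p = 0.038). In RM11 in YM it measured 125, 131, 140.3, 134 and 158 TPM with Cr41, against 149, 159.7, 152, 156 and 159 TPM untreated (log2 fold change -0.24, SE 0.06, adjusted p = 0.020). The groups overlapped in S288c in WYF, and in RM11 in YM through Cr41 replicate 5. With 1 library left out, the calls were lost in 6 and 3 of 10 fits. In S288c in YM it measured 115, 106, 111, 123 and 124 TPM with Cr41, against 129, 147, 135, 136 and 133 TPM untreated (log2 fold change -0.07, SE 0.07, adjusted p = 0.44), lower in every treated library by TPM but not called on counts. In RM11 in WYF it measured 139, 139, 129, 144 and 127 TPM with Cr41, against 129, 129, 129.8, 132 and 129.9 TPM untreated (log2 fold change 0.08, SE 0.05, adjusted p = 0.19). PRE1 and PRE7 were not called in these 4 comparisons, but without RM11 Cr41 replicate 5 in YM they were, at -0.31 and -0.20.

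Of the 6 ATPase genes of the base, 3 fell in S288c in YM (RPT4, RPT2 and RPT1) and 1 rose (RPT6), against 34.2% and 33% of all genes. RPT4 averaged 128 ± 14.5 TPM with Cr41 and 192 ± 9.44 TPM untreated (log2 fold change -0.44, SE 0.07, adjusted p = 1.8e-04). RPT6, whose transcript was the lowest of the subunit genes in this strain, averaged 43.6 ± 3.21 TPM with Cr41 and 37.9 ± 2.19 TPM untreated (log2 fold change 0.36, SE 0.08, adjusted p = 0.0023; SD, n = 5 each). RPT4 also fell in WYF in S288c (-0.26, lost in 4 of 10 fits with 1 library left out) and in RM11 (-0.17). RPT2 measured 114, 109, 122, 111 and 121 TPM with Cr41 in RM11 in WYF, against 149, 157, 175, 145 and 142 TPM untreated (log2 fold change -0.40, SE 0.06, adjusted p = 5.2e-05), with all treated libraries below the untreated ones. The RPT2 change in S288c in WYF was 0.10 (adjusted p = 0.44), and the strain difference there was 0.52, SE 0.12, adjusted p = 0.0025. RPT3 and RPT5 were not called in the 4 Cr41 comparisons with all libraries in edgeR.

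Among the 4 non-ATPase genes of the base, RPN1 and RPN10 fell in both S288c settings. Of all genes, 34.2% fell in YM and 25.4% in WYF there. RPN1, a docking subunit for ubiquitin shuttle factors, averaged 132 ± 13.8 TPM with Cr41 and 211 ± 9.91 TPM untreated in YM (SD, n = 5 each; log2 fold change -0.52, SE 0.07, adjusted p = 3.6e-05). RPN10, a ubiquitin receptor, averaged 71.6 ± 11.2 TPM with Cr41 and 99.6 ± 4.86 TPM untreated (log2 fold change -0.37, SE 0.09, adjusted p = 0.0027). In WYF the log2 fold changes were -0.27 for RPN1 (adjusted p = 0.038) and -0.23 for RPN10 (adjusted p = 0.011), and the RPN1 call was lost with 1 library left out in 7 of 10 fits. RPN2, the scaffold of the base, was not called in the 4 Cr41 comparisons, though in S288c in YM (0.14, adjusted p = 0.088) it was with a minimum of 10 counts and in 1 fit over all 40 libraries (adjusted p = 0.042 and 0.0066).

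RPN13 (YLR421C), the other ubiquitin receptor, was called in the WYF comparisons of both strains and in neither YM one. The S288c values in WYF were 77.4, 73.4, 70.9, 72.6 and 76.9 TPM with Cr41, against 79.3, 83.5, 93.1, 143 and 103 TPM untreated (log2 fold change -0.37, SE 0.13, adjusted p = 0.033). The RM11 values in WYF were 53.7, 61.3, 63.3, 74.6 and 93.8 TPM with Cr41, against 89.8, 114, 119, 69.2 and 80.5 TPM untreated (log2 fold change -0.41, SE 0.15, adjusted p = 0.042). The treated libraries lay below the untreated ones in S288c and overlapped them in RM11, and the calls were lost with 1 library left out in 6 and 7 of 10 fits. In S288c in YM it measured 114, 109, 111, 125 and 104 TPM with Cr41, against 127, 121, 125, 113 and 125 TPM untreated (log2 fold change 0.02, SE 0.07, adjusted p = 0.78). In RM11 in YM it measured 117, 105, 94.96, 100.1 and 122 TPM with Cr41, against 103, 112, 82.9, 96.4 and 97.6 TPM untreated (log2 fold change 0.09, SE 0.09, adjusted p = 0.59). The media difference within S288c was 0.40, SE 0.16, adjusted p = 0.046 (YM minus WYF), lost in 4 of 5 fits with 1 replicate number left out at 0.14 to 0.53, and the difference within RM11 was 0.48, SE 0.19, adjusted p = 0.096.

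Of the 8 lid genes in the set, 4 rose (RPN5, RPN11, RPN3 and RPN6) and 1 fell (RPN12) in S288c in YM, with a median of 0.24. Of all genes, 33% rose and 34.2% fell there. SEM1, a lid subunit outside the set, fell there in edgeR (log2 fold change -1.07, SE 0.08, adjusted p = 3.7e-07). The RPN5 rise held in these alternatives, while RPN11, RPN3 and RPN6 were lost in limma on log2(TPM + 1) (adjusted p = 0.22, 0.13 and 0.30), with any count admitted (adjusted p = 0.058, 0.055 and 0.054), and in 6, 4 and 3 of 10 fits with 1 library left out. The RPN12 fall there (-0.25) was lost in 3 of 10 such fits. RPN5 (YDL147W), a scaffold subunit, rose most of the subunit genes there, at 292, 336, 352, 280.1 and 272 TPM with Cr41 against 250.1, 242, 252, 244 and 242 TPM untreated (log2 fold change 0.42, SE 0.07, adjusted p = 2.9e-04). It was the only subunit gene whose treated libraries all lay above the untreated ones. The S288c values in WYF were 187, 178, 168, 167 and 179 TPM with Cr41, against 164, 178, 185, 246 and 198 TPM untreated (log2 fold change -0.11, SE 0.09, adjusted p = 0.34). The media differed within S288c by 0.53, SE 0.12, adjusted p = 0.0011 on the log2 scale.

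In RM11, RPN5 fell in WYF. It measured 146, 147, 138, 145 and 151 TPM with Cr41 there, against 165, 169, 181, 167 and 168 TPM untreated (log2 fold change -0.22, SE 0.04, adjusted p = 2.9e-04), without overlap. In YM it measured 169.6, 194, 178, 169 and 263 TPM with Cr41, against 187, 179.7, 175, 192 and 197 TPM untreated (log2 fold change 0.00, SE 0.09, adjusted p = 0.99). Replicate 5 with Cr41 was far above the other 4 treated libraries. The strains differed in YM by 0.41, SE 0.12, adjusted p = 0.0057.

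RPN3 (YER021W), another scaffold subunit, moved in opposite directions in the 2 strains in YM. In S288c it measured 42.7, 42.6, 41.1, 50.9 and 48.4 TPM with Cr41, against 37.5, 43.4, 42.9, 42.5 and 38.4 TPM untreated (log2 fold change 0.26, SE 0.09, adjusted p = 0.022). In RM11 it measured 46.0, 50.6, 49.6, 49.4 and 48.5 TPM with Cr41, against 63.6, 58.3, 55.3, 56.2 and 58.4 TPM untreated (log2 fold change -0.31, SE 0.07, adjusted p = 0.0074). The RM11 groups did not overlap, the S288c groups did, and the S288c call was lost with 1 library left out in 4 of 10 fits. The difference between the strains was 0.56, SE 0.12, adjusted p = 4.3e-04. In WYF the gene was not called. The S288c values in WYF were 48.0, 46.9, 47.9, 48.8 and 48.6 TPM with Cr41, against 50.4, 48.4, 49.2, 46.6 and 43.8 TPM untreated (log2 fold change 0.05, SE 0.06, adjusted p = 0.51). The RM11 values in WYF were 51.9, 48.6, 43.2, 47.2 and 52.8 TPM with Cr41, against 44.3, 45.8, 40.3, 49.4 and 44.0 TPM untreated (log2 fold change 0.12, SE 0.06, adjusted p = 0.15). The media differed within RM11 by -0.45, SE 0.09, adjusted p = 0.0046 (YM minus WYF).

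RPN11 (YFR004W), the deubiquitinase, rose in S288c in YM by a margin close to its spread. It measured 59.0, 70.4, 75.1, 69.4 and 48.4 TPM with Cr41, against 68.4, 59.1, 53.6, 51.1 and 49.8 TPM untreated (log2 fold change 0.33, SE 0.12, adjusted p = 0.030). The groups overlapped, and the call was lost with 1 library left out in 6 of 10 fits. The S288c values in WYF were 44.8, 44.1, 34.7, 33.3 and 38.6 TPM with Cr41, against 33.4, 38.2, 46.2, 74.2 and 47.9 TPM untreated (log2 fold change -0.21, SE 0.17, adjusted p = 0.33). In RM11 in YM it measured 45.1, 50.5, 43.3, 39.4 and 60.9 TPM with Cr41, against 45.9, 48.4, 39.3, 46.8 and 41.2 TPM untreated (log2 fold change 0.05, SE 0.09, adjusted p = 0.80). The RM11 values in WYF were 31.2, 33.2, 24.7, 28.8 and 45.1 TPM with Cr41, against 34.6, 42.4, 41.3, 30.8 and 30.8 TPM untreated (log2 fold change -0.14, SE 0.13, adjusted p = 0.45). It overlapped in all 4 settings. RPN7 fell in RM11 in WYF (log2 fold change -0.18, SE 0.05, adjusted p = 0.0078), and RPN9 was not called in the 4 Cr41 comparisons. RPN8, the partner of RPN11, lay near the threshold in S288c in YM (log2 fold change 0.28, SE 0.12, adjusted p = 0.056), and was called in DESeq2 (0.30, adjusted p = 0.041), with a minimum of 10 counts, with a replicate block, in 1 fit over all 40 libraries and in 4 of 10 fits with 1 library left out.

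Added together, the 32 subunit genes were lower with Cr41 in S288c by TPM, and in CPM their groups overlapped. Their sum was 3869 to 4153 TPM (median 4010.3) with Cr41 in YM, against 4807 to 5070.5 TPM (median 4865) untreated, and 3966 to 4189.7 TPM (median 4124) with Cr41 in WYF, against 4279 to 4942 TPM (median 4471) untreated. In RM11 the sums were 4589 to 5880.3 TPM (median 4637) with Cr41 in YM, against 4703 to 5299 TPM (median 5049.9) untreated, and 4146 to 4381 TPM (median 4239) in WYF, against 4388 to 4761 TPM (median 4525) untreated. By TPM the S288c groups and RM11 in WYF did not overlap, while in RM11 in YM Cr41 replicates 2 and 5 lay above the lowest untreated library. The TPM scale lowers S288c values in YM as a whole, with a median of all genes of -0.14, and the fall of the summed level of -0.29 on the log2 scale was -0.14 in CPM normalized by TMM. In S288c in WYF it was -0.15 in TPM and -0.076 in CPM. The CPM sums were 5261 to 6588 with Cr41 and 6381 to 6936 untreated in S288c in YM, and 5454 to 5990.0 with Cr41 and 5726 to 6314 untreated in S288c in WYF. In RM11 they were 6299 to 7089 with Cr41 and 6529 to 7142 untreated in YM, and 5826 to 6032 with Cr41 and 6112 to 6518 untreated in WYF. Only RM11 in WYF stayed apart in CPM.

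**Figure D4:**
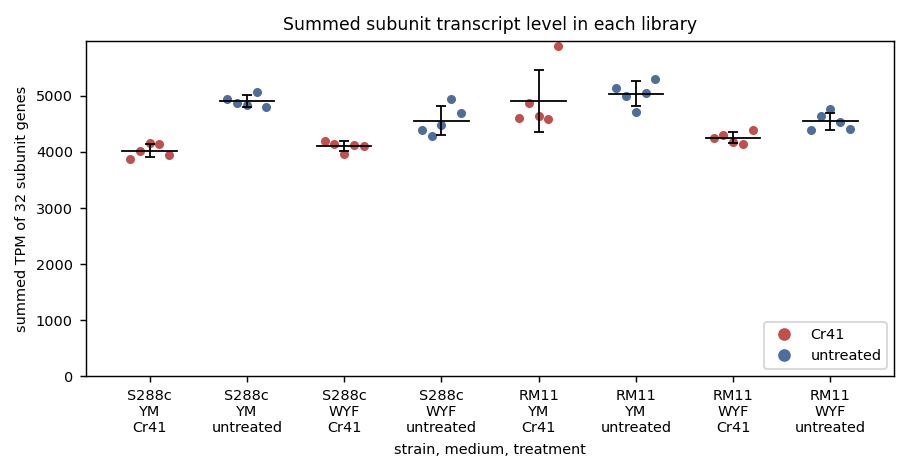
Summed TPM of the 32 subunit genes (y axis) in each library of the 8 groups (x axis), with mean and SD. In S288c in YM the Cr41 libraries sit between 3869 and 4153 TPM, all below the untreated ones, and 1 RM11 library with Cr41 in YM sits at 5880.3 TPM.

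The Cr41 effects on the subunit genes were also compared between strains and between media. In YM, 8 of the 33 genes had a higher effect in S288c than in RM11 and 9 a lower one, against 25.7% and 28.4% of all genes. The higher ones were RPN4, RPN3, RPT6, RPN8, RPN5, PRE3, PRE4 and RPN2, at 0.27 to 1.47, and the lower ones were PUP2, PUP3, RPN1, PUP1, RPT2, PRE6, RPN10, RPT4 and PRE9, at -0.62 to -0.34. With 1 replicate number left out, PRE4 and RPT4 were lost in 3 of 5 fits each and PRE3, PRE9 and RPN2 in 2. In WYF, 3 were higher and 1 lower, against 15.0% and 20.1%. Within S288c, 4 had a higher effect in YM than in WYF and 3 a lower one, against 21.4% and 19.6%, and within RM11 1 was higher and 4 were lower, against 6.10% and 5.12%. RPN4 in YM was the only gene of the 33 past 2-fold in these 4 contrasts, against 11.0% of all genes higher and 8.21% lower in YM, 2.47% and 5.08% in WYF, 6.53% and 2.47% within S288c, and 0.307% and 0.433% within RM11. In WYF the higher ones were RPN4, RPT2 and PRE10 (lost in 3 of 5 fits) and the lower one PUP2, which was lost without replicate 5 of all 4 groups, while 2 were lower without replicate 4. Within S288c the higher ones were RPN4, RPN5, RPT6 and RPN13 (lost in 4 of 5), and the lower ones PUP1, PUP3 and RPT2 (lost in 2 of 5), with 6 lower without replicate 4. Within RM11 the higher one was RPT2 and the lower ones were PRE3, RPN3, PRE2 and PRE8, of which PRE8 was lost in 5 of 5 fits and PRE3 and PRE2 in 2. That count of 4 was 0 without replicate 1 and 1 without replicate 2, and the higher one was lost without replicate 2, while 2 were higher without replicate 5.

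Before treatment, the strains differed at many of these genes. In untreated YM cells, 6 of the 33 genes were higher in S288c than in RM11 and 17 lower, against 36.2% and 35.3% of all genes, and in untreated WYF cells 2 were higher and 14 lower, against 26.7% and 27.5%. PRE1 (YER012W), a beta subunit gene, differed most: it measured 57.0, 56.3, 64.5, 63.2 and 67.8 TPM in S288c in YM, against 219, 215, 191, 213 and 196 TPM in RM11 (log2 fold change -1.82, SE 0.07, adjusted p = 6.6e-11). In WYF it measured 65.9, 69.5, 61.8, 49.9 and 50.9 TPM in S288c, against 163, 182, 175, 187 and 189 TPM in RM11 (log2 fold change -1.71, SE 0.11, adjusted p = 3.6e-08). Every S288c library lay below the lowest RM11 library in both media. PRE1 was the only 1 of the 33 genes past 2-fold in either strain comparison, against 8.38% of all genes lower and 6.72% higher 2-fold in YM, and 4.91% and 5.87% in WYF. By library TPM, 9 genes did not overlap and were higher in S288c in YM and 12 were lower (36.7% and 23.6% of all genes), and in WYF 8 were higher and 3 lower (30.7% and 13.8%). PRE7 (-0.69 in YM and -0.65 in WYF) and RPN6 (-0.68 and -0.60) were lower in S288c in both media, while SCL1 (0.29 and 0.33) and RPN1 (0.34 and 0.26) were higher. The RPN1 call in WYF was lost in 2 of 5 fits with 1 replicate number left out, which ran from 0.16 to 0.30. In WYF the number lower was 7 without replicate 2 of both strains, 5 without replicate 3 and 8 without the untreated RM11 library that carried S288c transcripts, and the number higher was 1 without replicate 5. Both strains were counted on the S288c transcriptome, and the effect of that on RM11 values was not tested. On the TPM scale, which shifts the median of all genes by 0.10 in YM and 0.15 in WYF, the split was 11 higher and 14 lower in YM and 8 higher and 4 lower in WYF.

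Subunit levels were lower in WYF than in YM in untreated RM11, where medium and lane cannot be told apart. There, 16 of the 33 genes were lower and 0 higher in WYF than in YM in edgeR, against 13.2% each way (0 higher at an unadjusted p under 0.05, and 0 in DESeq2 and in limma), and the 32 subunit genes had a median of -0.15. RPN3 (-0.36), PRE3 (-0.35) and RPN11 (-0.30) fell most, and the count was 8 without replicate 1 of both groups, 10 without replicate 2, 9 without replicate 4 and 7 without the 3 libraries that carried S288c transcripts. In untreated S288c, 2 were higher in WYF (PRE8 and RPN4) and 6 lower, against 20% and 20.6%, led by RPT2 with 142 ± 16.1 TPM in WYF and 208 ± 17.6 TPM in YM (SD, n = 5 each; log2 fold change -0.60, SE 0.09, adjusted p = 2.0e-04). Without replicate 4 of both groups, 7 were higher. By library TPM, 4 genes did not overlap and were higher in WYF in S288c and 2 were lower (17.3% and 9.50% of all genes), and in RM11 0 were higher and 10 lower (7.57% and 10.3%). No gene of the 33 differed 2-fold between media, where 3.19% of all genes were higher and 0.878% lower 2-fold in S288c, and 0.546% and 1.35% in RM11.

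Among the 32 subunit genes, which leave out SEM1, the most and least abundant transcripts were nearly the same in all groups. SEM1 averaged 2224 TPM in untreated S288c in YM, above PUP3. PUP3 was highest in 7 of the 8 groups, at 359 to 447 TPM, and RPN5 in S288c with Cr41 in YM, at 306 TPM, where PUP3 stood at 260.1 ± 16.9 TPM (SD, n = 5 each). RPT6 or RPN11 was lowest in every group, at 32.01 to 44.2 TPM. The highest subunit gene lay 7.03 to 11.8 times above the lowest, and the median subunit gene lay at the 83.9th to 86.8th percentile of all transcripts.

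Lists of genes that act with the proteasome were counted in the same way, against the shares of all genes that rose and fell given above for each comparison (33% and 34.2% in S288c in YM). Of 17 assembly chaperones and associated factors, 7 rose and 5 fell with Cr41 in S288c in YM (41.2% and 29.4%). SEM1, a small lid subunit that is not among the 33 genes, fell there, at 951 TPM with Cr41 and 2224 TPM untreated (log2 fold change -1.07, SE 0.08, adjusted p = 3.7e-07), and POC4, a chaperone of core assembly, fell in S288c in WYF (log2 fold change -1.08, SE 0.25, adjusted p = 0.0025). Of 19 ubiquitin, shuttle and CDC48 factors, 5 rose and 4 fell in S288c in YM (26.3% and 21.1%), and UBC5, a stress-linked ubiquitin-conjugating enzyme, rose (log2 fold change 1.19, SE 0.15, adjusted p = 2.2e-05). With WYF in S288c, these lists had 2 rises and 3 falls of 17 and 8 rises of 19, in RM11 in YM 1 rise of 17 and 2 falls of 19, and in RM11 in WYF 4 rises and 1 fall of 17 and 3 rises and 2 falls of 19.

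Of 5 regulators known to act on RPN4 or on related drug responses (YAP1, PDR1, PDR3, HSF1 and YRR1), 3 rose with Cr41 in S288c in YM, where 33% of all genes rose. They were YAP1 (log2 fold change 0.71, SE 0.06, adjusted p = 1.0e-06), PDR3 (log2 fold change 0.72, SE 0.07, adjusted p = 1.7e-06) and HSF1 (log2 fold change 0.38, SE 0.05, adjusted p = 4.8e-05), named here after their values were seen. PDR1 and YRR1 were not called there, and the lowest of the 5 changes was -0.01. With Cr41 in WYF, YAP1 (0.34), PDR3 (0.21) and YRR1 (0.22) rose in S288c, where 22.7% of all genes rose. PDR3 rose in RM11 in WYF (0.24) and YAP1 fell (-0.18), against 17.8% of all genes each way. In RM11 in YM the 5 were not called and had a median of 0.09, where 7.99% of all genes rose and 7.28% fell. PDR1 was not called in any of the 4 Cr41 comparisons. Transcript levels of these factors are not their activity, and their part in the RPN4 change was not tested.

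Heat shock chaperone genes rose with RPN4 in S288c and fell in RM11 in YM. Of 16, 14 rose with Cr41 in S288c in YM (33% of all genes rose), with a median of 0.87, led by HSP26 (log2 fold change 2.96, SE 0.18, adjusted p = 2.7e-08). In S288c in WYF 13 rose (22.7% of all genes), in RM11 in YM 13 fell (7.28%), and in RM11 in WYF 5 rose and 7 fell (17.8% each way). In untreated RM11, 12 of the 16 were lower in WYF than in YM and 1 was higher, against 13.2% each way. Their summed level in RM11 in YM averaged 3845 TPM untreated and 2685 TPM with Cr41. The untreated libraries ran from 3013 TPM, in replicate 5, to 4247 TPM, and the treated ones from 2567 to 2904.5 TPM. In RM11 in WYF it averaged 2892 TPM untreated and 2480 TPM with Cr41. BTN2, which sorts aggregated proteins, fell most in RM11 in YM, at 9.69 TPM with Cr41 and 116 TPM untreated (log2 fold change -3.64, SE 0.46, adjusted p = 9.4e-05). HSP42, SSE2, SSA1 and HSP104 rose in S288c in YM by 2.14, 1.63, 1.42 and 1.34, SSA3 in S288c in WYF by 1.41, and FES1 fell in RM11 in YM (-1.06). The 8 genes of the cytosolic chaperonin CCT, an abundant folding complex, had 5 falls in S288c in YM, 1 in S288c in WYF and 2 in RM11 in WYF. The shares of all genes that fell were 34.2%, 25.4% and 17.8% there. In RM11 in YM the 8 had a median of -0.06.

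Subunit genes with the control element moved in both directions. All 32 held a form of it, so its presence could not be related to direction within the set. The part of the element in these changes was not tested. Of the 27 subunit genes with GGTGGCAAA, 6 rose and 9 fell with Cr41 in S288c in YM (median 0.01), and of the 5 with another form 2 fell. Of 43 tested genes outside the set with GGTGGCAAA, 11 rose and 21 fell (25.6% and 48.8%, median -0.17), against 33% and 34.2% of all genes. Both strands were searched, so an element between divergent neighbours can count for both genes. Among the 43 were NOP14, YPI1, ALG13, GCD1 and YTH1, the neighbours of RPN5, RPN11, RPT6, RPT4 and RPN7. The 43 are therefore not a separate set of elements. RPN5, RPT6 and RPN11, which rose, and PUP2 and PUP3, which fell, hold GGTGGCAAA in the sequences shown, and were picked for these changes.

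**Figure D5:**
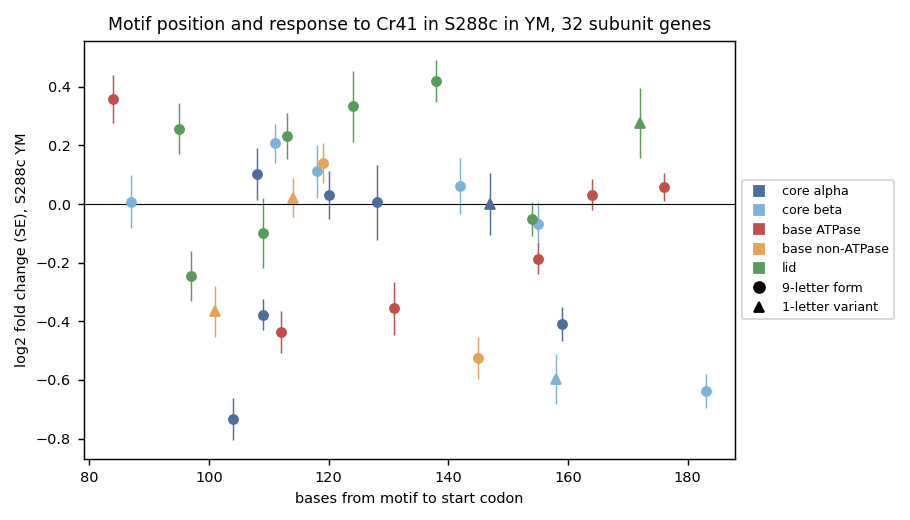
Log2 fold change with Cr41 in S288c in YM (y axis, bars are SE) against the distance in bases of the control element from the start codon (x axis) for the 32 subunit genes, coloured by place in the complex, with circles for GGTGGCAAA and triangles for other forms. PUP2 lies at 104 bases with -0.73 and RPT6 at 84 bases with 0.36.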

How the data were processed

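Total RNA was extracted with hot phenol and sequenced after a ScriptSeq library preparation, as 5 libraries in each of 8 groups. The authors quantified reads with Salmon 0.13.1 (per the submitters' processing notes) with reads of either strain assigned to S288c transcripts. The build of that index is not given in the sources used here. The deposited values are an estimated count and a TPM for each transcript. Estimated counts were rounded to whole numbers and tested with edgeR 4.0.16 (R 4.3.3) by quasi-likelihood F tests, after filtering with filterByExpr and TMM normalization. Cr41 and untreated groups, strains and media were compared without a replicate block, strain and medium differences of the Cr41 effect as contrasts over 4 groups, and p-values were Benjamini-Hochberg adjusted over all genes tested (threshold 0.05). TPM, which the authors' files give, served for levels per transcript length. Alternatives were DESeq2 1.42.0, limma 3.58.1 on log2(TPM + 1), RLE size factors, other count filters, a replicate block, 1 fit over all 40 libraries, a 2-fold requirement and each library left out. 2 alternatives chosen after seeing the data left out both RM11 YM libraries numbered 5, or 3 untreated RM11 libraries carrying S288c transcripts.

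The 33 genes and all gene lists were chosen with earlier results of these data known. Values in every library are given for RPN4, PRE3, PUP1, PRE2, RPN11 and the subunit genes that rose or fell most in each Cr41 comparison, and other listed genes are named when called with at least a 2-fold change. Per-library values of PUP3, RPT2 and PRE1 were added after their values were seen. Of the transcript names, 5993 matched a RefSeq R64 gene and 668 did not. Sequences are from RefSeq R64, and TPM values depend on the authors' effective transcript lengths.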

Additional observations from a re-analysis of the deposited data

Results flagged for a closer look

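Among 80 groups of 5 library values tested for RPN4, the subunit genes given library by library and the summed subunit level, 5 held a library far from the other 4, where chance alone gives about 1 in 20. RPN4 measured 42.2 TPM in untreated RM11 replicate 5 in YM, against 55.0 to 59.0 TPM in the other 4. RPN5 measured 263 TPM in RM11 with Cr41 in YM, replicate 5, against 169 to 194 TPM, and the summed level of the 32 subunit genes in the same library was 5880.3 TPM, against 4589 to 4864 TPM. RPN5 measured 181 TPM in untreated RM11 replicate 3 in WYF, against 165 to 169 TPM. PUP2 measured 415 TPM in untreated S288c replicate 4 in WYF, against 268 to 308 TPM.

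Differences of the Cr41 effect between strains or media, tested as contrasts in edgeR, passed the threshold for RPN4 and for 7 of the 8 subunit genes given library by library in all groups. RPN5, PUP2, RPN3 and RPN13 were chosen for the largest rise or fall in a Cr41 comparison of these data. Their calls here are therefore not separate support. Of all genes, 25.7% were higher and 28.4% lower between strains in YM, and 15.0% and 20.1% in WYF. Within S288c the shares were 21.4% and 19.6%, and within RM11 6.10% and 5.12%. For S288c minus RM11 in YM the log2 differences were 1.47 for RPN4, 0.35 for PRE3, -0.45 for PUP1, 0.41 for RPN5, -0.62 for PUP2 and 0.56 for RPN3. For S288c minus RM11 in WYF they were 0.65 for RPN4 and -0.36 for PUP2. For YM minus WYF within S288c they were 0.57 for RPN4, -0.53 for PUP1, 0.53 for RPN5 and 0.40 for RPN13. For YM minus WYF within RM11 they were -0.48 for PRE3, -0.33 for PRE2 and -0.45 for RPN3. With 1 replicate number left out, the RPN13 contrast was lost in 4 of 5 fits, at 0.14 to 0.53, and the PRE3 contrasts and the PRE2 contrast in 2 of 5 each.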

How the results depend on the processing

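Values are numbers of the 33 genes called, or log2 changes of RPN4 and of the summed level. Depth and 5 libraries a group limit small changes, and each strain stands for 1 background. With a 2-fold requirement as well, the numbers higher and lower were 1 and 0 in S288c in YM, 0 and 0 in S288c in WYF, 0 and 0 in RM11 in either medium, 1 and 0 for the strain contrast in YM, 0 and 0 for the other 3 contrasts of effects, 0 and 1 for untreated S288c over RM11 in both media, and 0 and 0 for WYF over YM in both strains; RPN4 then passed only in S288c in YM and its strain contrast, its values of 0.59, -0.32, 0.65, 0.57, -0.79, -0.21, 0.30 and -0.29 elsewhere being below 2-fold. On log2(TPM + 1) in limma, S288c had 3 higher in YM, and 1 higher and 11 lower in WYF. RM11 had 1 lower in YM and 0 higher in WYF. The strain contrasts had 2 higher in YM and 3 lower in WYF, and the medium contrasts 8 lower in S288c and 2 lower in RM11. Untreated S288c over RM11 gave 11 higher in YM, and 8 higher and 4 lower in WYF, where RPN4 was -0.061 (adjusted p = 0.56), and WYF over YM in S288c gave 4 higher. RPN4 in RM11 in YM was -0.27 (adjusted p = 0.12). RPT3 in untreated S288c over RM11 in YM turned to 0.026, against -0.10 on counts. With any count admitted, 4 rose in S288c in YM. DESeq2 gave 6 lower in RM11 in YM, 5 higher for the strain contrast in WYF and 5 lower for the medium contrast in S288c. RLE factors gave 5 lower in RM11 in YM and 5 higher for the strain contrast in WYF, and a minimum of 10 counts gave 5 higher there; RPN4 in untreated WYF was -0.19 under both (adjusted p = 0.054 each). 1 fit over all 40 libraries gave 0 higher and 5 lower in RM11 in WYF, 5 lower for the medium contrast in S288c and 8 lower for WYF over YM in RM11. In CPM in place of TPM the summed level changed by -0.14 in S288c in YM and -0.076 in WYF.

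Replicate numbers did not pair the samples: correlations of same-numbered deviations ran from -0.37 to 0.55, and no comparison had all 5 above 0.1. With a replicate block, 3 genes fell in S288c in WYF, RPN4 was -0.32 in RM11 in YM (adjusted p = 0.071) and -0.20 in untreated WYF (adjusted p = 0.057), and no other number of calls moved by over 1.5 times. Without both RM11 YM libraries numbered 5, 14 fell in RM11 in YM and the RPN4 medium contrast was -0.37 (adjusted p = 0.014). Without the 3 RM11 libraries carrying S288c transcripts, 1 fell in RM11 in YM and 5 in WYF, 2 were lower for the medium contrast in RM11, 8 were lower in untreated WYF and 7 in WYF over YM in RM11, and RPN4 was -0.26, -0.18 and -0.24 (adjusted p = 0.24, 0.093 and 0.19) in RM11 in YM, untreated WYF and WYF over YM in RM11.

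With 1 library left out, the ranges of higher and lower calls were 4 to 10 and 10 to 11 in S288c in YM, 2 to 4 and 3 to 6 in S288c in WYF, 0 to 0 and 1 to 15 in RM11 in YM, and 0 to 2 and 5 to 10 in RM11 in WYF. With 1 replicate number left out they were 6 to 12 and 7 to 8 for the strain contrast in YM, 2 to 4 and 0 to 2 in WYF, 3 to 6 and 2 to 6 for the medium contrast in S288c, 0 to 2 and 0 to 5 in RM11, 5 to 6 and 14 to 17 for untreated strains in YM, 1 to 2 and 5 to 14 in WYF, 2 to 7 and 4 to 9 for WYF over YM in S288c, and 0 to 0 and 8 to 16 in RM11. RPN4 ranged over -0.40 to -0.27 in RM11 in YM, -0.32 to -0.21 for the medium contrast in RM11, -0.26 to -0.15 for untreated strains in WYF and -0.32 to -0.27 for WYF over YM in RM11, and kept its call in the other comparisons where it had one. The causes of these shifts were not tested.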
